A study of Homo sapiens with 52 samples.

Results

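The 10 genes described here are members of the BCL2 family, which sets the threshold for apoptosis at the mitochondrion. They were chosen by gene symbol from the 27043 genes listed in each of 52 RNA-seq tables. BCL2, BCL2L1 (BCL-XL) and MCL1 are the 3 anti-apoptotic members. BCL2L11 (BIM), BBC3 (PUMA), PMAIP1 (NOXA), BMF and HRK are the 5 BH3-only members. BAX and BAK1 are the 2 effectors.

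The anti-apoptotic proteins hold BAX and BAK1 in check. BH3-only proteins bind and neutralise the anti-apoptotic proteins, and some also activate the effectors directly. Active BAX and BAK1 open the outer mitochondrial membrane, release cytochrome c and start the caspase cascade. BBC3 and PMAIP1 are well-known targets of p53, and BCL2L11 is a known target of FOXO factors and is held down by MAPK signalling. MCL1 mRNA and protein are both short-lived, and PMAIP1 binds MCL1 with preference. Only mRNA was measured in these samples, so protein levels, protein binding and cell death were not.

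The cells were fusion-positive rhabdomyosarcoma (FP-RMS), a childhood muscle-lineage tumour, and carried the PAX3-FOXO1 fusion in every group, controls included. In the screen, 20 compounds were each given for 6 h at 2 doses 10-fold apart (1 and 10 µM, or 0.5 and 5 µM for LAQ824, Cpd50 and GSKJ4), 1 sample a dose. They stood against 4 DMSO samples, 2 each at 0.1% and 0.2%. By labelled target, 7 compounds acted on the acetylation axis: LAQ824 (HDAC), WT161 (HDAC6), MC 1568 (HDAC4/5), Merck60 (HDAC1/2), OJI-1 (HDAC8), Bromosporin (bromodomains) and SGC-CBP30 (the CREBBP/EP300 bromodomain). Another 11 acted on the methylation axis: EZ-005 (EZH2), UNC1999 (EZH1), UNC0638 (KMT1C), SGC0946 (DOT1L), PFI-2 (SETD7), UNC-1215 (L3MBTL3), Cpd50 (pan-Jumonji), GSKJ4 (JMJD3/UTX) and the LSD1 compounds GSKLSD1, LSD-519 and LSD-690. PFI-3 (SMARCA4) and trametinib (MEK1/2) were placed in neither axis, from the labelled target alone. No comparison was made with PFI-3 counted in the acetylation axis. A further 8 samples had N1302 (HDAC) at 1 µM for 6 h or entinostat (HDAC1/2/3) at 1 µM for 1, 6 and 24 h, each beside 1 sample in 0.1% DMSO at the same time. The screen samples carry RH41 in their titles while their cell line label reads RH4. The other 8 carry RH4 in both places, so the sets were not tested against each other.

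All values are transcript abundances scaled to a fixed total per sample (TPM), a level per transcript length, and changes are on the log2(TPM + 1) scale, which understates changes of low genes. Depth, worked out from the TPM steps, ran from 5737939 to 41415071 reads a sample. The 2 doses of a compound stood as its 2 samples, and the 2 samples of each DMSO concentration were averaged and counted as 1. No label says that samples came from separate cultures, so p-values measure the spread between these samples only. In the main fit that spread is the difference between the 2 doses of a compound and between the 2 DMSO concentrations, pooled over compounds. Dose effects therefore widen the SE of every compound. The muscle and FP-RMS markers MYOD1, MYOG, DES, FGFR4, PAX3 and TFAP2B summed to between 976 and 3246 TPM. Markers of blood, epithelium, endothelium, T cells, B cells and glia summed to at most 1.86 TPM, with MS4A1 at 0 in all 52 samples. In bulk RNA, fewer cells of a type and less RNA per cell cannot be told apart.

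The promoters of the 5 members called with LAQ824 are shown first, because these members carry most of the calls among the acetylation-axis compounds. Each line gives the 150 bases before the gene's start in RefSeq on GRCh38.p14, another build than the hg19 of the tables. Capitals mark 3 motifs, searched on both strands, so that their reverse complements are in capitals too. The GC box was searched as GGGCGG. The letters CCAAT gave the CCAAT box. For the TATA box the letters were TATAAA.
BCL2L11, chr2:111120764-111120913, plus strand: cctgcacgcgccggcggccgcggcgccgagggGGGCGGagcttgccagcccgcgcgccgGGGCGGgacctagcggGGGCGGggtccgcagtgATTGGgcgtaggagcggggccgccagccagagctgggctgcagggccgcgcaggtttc
PMAIP1, chr18:59899846-59899995, plus strand: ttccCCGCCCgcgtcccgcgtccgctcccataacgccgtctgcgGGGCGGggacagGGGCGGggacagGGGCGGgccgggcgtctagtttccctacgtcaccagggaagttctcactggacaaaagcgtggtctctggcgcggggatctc
BBC3, chr19:47232668-47232817, minus strand: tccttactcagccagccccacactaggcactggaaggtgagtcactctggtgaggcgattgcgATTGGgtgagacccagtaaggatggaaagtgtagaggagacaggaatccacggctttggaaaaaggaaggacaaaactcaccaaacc
BCL2, chr18:63319770-63319919, minus strand: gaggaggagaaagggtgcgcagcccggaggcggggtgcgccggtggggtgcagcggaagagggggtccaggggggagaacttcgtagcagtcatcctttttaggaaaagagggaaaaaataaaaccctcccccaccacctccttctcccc
BCL2L1, chr20:31723964-31724113, minus strand: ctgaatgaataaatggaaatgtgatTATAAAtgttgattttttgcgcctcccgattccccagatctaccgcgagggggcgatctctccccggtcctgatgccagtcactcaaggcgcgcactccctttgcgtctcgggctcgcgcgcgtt
A GC box occurred 3 times before BCL2L11 and 4 times before PMAIP1, and was not in the windows of BBC3, BCL2 and BCL2L1. Of 35116 promoters of the same length, 36.8% held a GC box, 23.5% a CCAAT box and 6.71% a TATA box. The windows of BCL2L11 and BBC3 each held 1 CCAAT box, and the upstream of the 2 BCL2L1 starts held the only TATA box among the 11 windows of 9 members. G and C made up 80.7% of the BCL2L11 window and 52% of the BBC3 window, against a median of 60%. These letter matches are descriptions and carry no evidence of binding. MCL1 had no entry.

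In the tables (hg19) BCL2L11 spans chr2:111878491-111926022 on the plus strand, PMAIP1 chr18:57567192-57571538 on the plus strand and BBC3 chr19:47724079-47736023 on the minus strand. BCL2 spans chr18:60790579-60986613, BCL2L1 chr20:30252255-30311802 and MCL1 chr1:150547027-150552214, all on the minus strand. All 10 members are protein-coding. BCL2, BCL2L1, BCL2L11, BMF, BBC3 and BAK1 each overlap an annotated gene on the opposite strand, and whether counting used strand is not given in the sources used here. BAK1 has processed pseudogene copies, BAK1P1 and BAK1P2, that could share its reads.

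In DMSO the effector BAX and the anti-apoptotic MCL1 had the highest levels of the 10 members. Over the 4 screen DMSO samples BAX ranged from 231 to 263 TPM and MCL1 from 204 to 221 TPM. BMF followed at 103 to 108 TPM, a level well above the other BH3-only genes. PMAIP1 stood at 33.3 to 36.4 TPM, BAK1 at 29.5 to 32.9 TPM and BCL2L1 at 17.2 to 19.3 TPM. BCL2, at 12.8 to 14.6 TPM, and BCL2L11, at 12.2 to 13 TPM, overlapped. Every other neighbour in this order was separated in these 4 samples. BBC3 was low, at 3.47 to 4.21 TPM, which rested on 40 to 57 reads a sample. HRK, a BH3-only gene best known from neurons, had no read in 42 of 52 samples and at most 7 reads, reached after 24 h of entinostat. Its highest level was 0.480 TPM, in LSD-690 at 10 µM, and 3 reads stood for 0.132 to 0.719 TPM in the samples that had reads. HRK did not pass the filter of at least 1 TPM in 2 samples, and its changes were not detectable at this depth. The other 9 members passed and were tested among 16359 genes.

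LAQ824, an HDAC inhibitor, raised 3 BH3-only genes and lowered 2 anti-apoptotic genes at both doses. BCL2L11 read 45 TPM at 0.5 µM and 44 at 5 µM. PMAIP1 read 125 and 142 TPM, and BBC3 read 22.8 and 22.6 TPM. All 6 values lay above every DMSO sample. Against DMSO the log2 fold change was 1.74 (SE 0.328, adjusted p = 9.28e-05) for BCL2L11, 1.91 (SE 0.406, adjusted p = 0.000347) for PMAIP1 and 2.32 (SE 0.617, adjusted p = 0.00276) for BBC3. These p-values are from limma with Benjamini-Hochberg adjustment over the 16359 genes. Calls were set at 0.05 of the adjusted p. BCL2L1 fell to 5.98 and 6.26 TPM (log2 fold change -1.44, SE 0.262, adjusted p = 6.38e-05). BCL2 fell to 8.99 and 8.66 TPM (-0.59, SE 0.144, adjusted p = 0.00129). MCL1, at 211 and 228 TPM, and BAX, at 232 and 215 TPM, did not pass. Of all genes, 28.4% were called higher and 24.6% lower with LAQ824, against 3 and 2 of the 9 members. These counts are close to the background shares. The values at the 2 doses of LAQ824 were close, and the same 5 members were called at each dose alone. At 5 µM alone 22.5% of genes were higher and 20.2% lower, and at 0.5 µM 23.1% and 19.9%. Measured against the DMSO of its own flow cell, LAQ824 also lowered BMF, which promotes apoptosis when freed from the cytoskeleton, by a log2 of -0.47 (adjusted p = 0.00353), where 35.4% of genes were higher and 32.9% lower.

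Bromosporin, a broad bromodomain inhibitor, moved 6 members, and its 10 µM sample held the extremes of the screen for 5 of them. BCL2L1 read 6.13 TPM at 1 µM and 1.72 TPM at 10 µM, the latter from 38 reads, and both lay below every DMSO sample. The log2 fold change was -2.14 (SE 0.262, adjusted p = 1.63e-05). BCL2 read 8.67 and 5.44 TPM (-0.91, SE 0.144, adjusted p = 0.000114). BCL2L11 read 26.9 and 61.1 TPM (1.61, SE 0.328, adjusted p = 0.000709), and PMAIP1 67.3 and 155 TPM (1.53, SE 0.406, adjusted p = 0.00533). The effectors were lower as well. Their medians over all 40 treated screen samples, 218 TPM for BAX and 28.2 TPM for BAK1, also lay below every screen DMSO sample. BAX read 181 and 120 TPM (-0.74, SE 0.174, adjusted p = 0.00224) and BAK1 23.6 and 21.5 TPM (-0.44, SE 0.151, adjusted p = 0.0250). MCL1 read 240 and 376 TPM and BBC3 4.73 and 11.1 TPM, and neither passed. BMF was on the lower side without passing (-0.67, SE 0.339, adjusted p = 0.128). Over all genes 12.4% were higher and 23.4% lower, against 2 and 4 of the 9 members. The median of all genes was shifted by -0.12, and the values here are not corrected for it. With median-ratio scaling BAK1 was no longer called (log2 fold change -0.33, adjusted p = 0.0620).

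The higher dose of Bromosporin had the larger differences. At 10 µM alone the same 6 members were called, with log2 fold changes of -2.83 for BCL2L1, -1.20 for BCL2, 2.19 for BCL2L11 and 2.12 for PMAIP1, where 15.8% of genes were higher and 30.7% lower. At 1 µM alone only BCL2L1 (-1.44) and BCL2 (-0.62) were called, where 1.94% of genes were higher and 4.7% lower. BCL2L11 at 1 µM alone gave 1.04 (adjusted p = 0.0796) and PMAIP1 0.93 (adjusted p = 0.245). With median-ratio scaling at 10 µM MCL1 was called (1.04, adjusted p = 0.0194) and BAK1 was not (-0.28, adjusted p = 0.174), where 22.1% of genes were higher and 24% lower. Against the mean of the other compounds on its flow cell BAK1 was not called at 10 µM either (-0.40, adjusted p = 0.0693), where 14.9% of genes were higher and 29.9% lower.

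**Figure D1:**
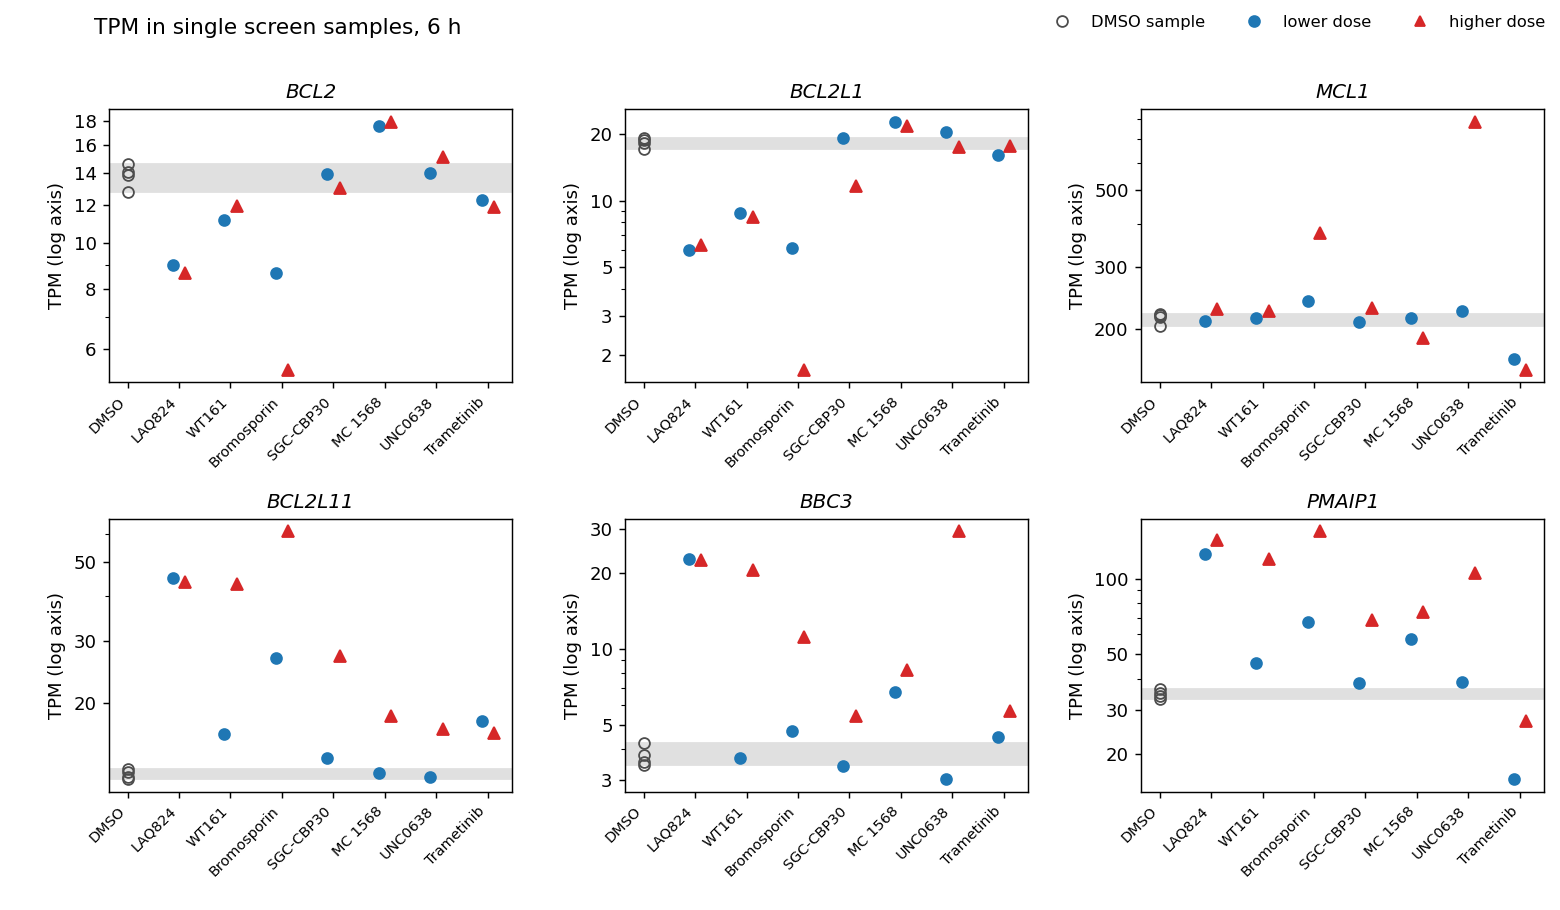
TPM of 6 BCL2 family genes (log axis) in single screen samples at 6 h: 4 DMSO samples as open circles with their range shaded, the lower dose of each compound as a blue circle and the higher as a red triangle. BCL2L1 lies below the DMSO range at both doses of LAQ824, WT161 and Bromosporin, MCL1 reaches 787 TPM only at 10 µM UNC0638, and PMAIP1 lies below the range with trametinib.

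WT161, labelled as an HDAC6 inhibitor, lowered BCL2L1 at both doses, while BBC3, BCL2L11 and PMAIP1 were called only at 10 µM when each dose was tested alone. BCL2L1 read 8.77 TPM at 1 µM and 8.42 TPM at 10 µM (log2 fold change -1.01, SE 0.262, adjusted p = 0.00463). BCL2L11 read 16.3 and 43.2 TPM (1.02, SE 0.328, adjusted p = 0.0187). PMAIP1 read 46.3 and 120 TPM (1.08, SE 0.406, adjusted p = 0.0444). BBC3 read 3.67 and 20.6 TPM from 27 and 212 reads (1.08, SE 0.617, adjusted p = 0.190). BAK1 was the exception among the effectors, at 48.8 and 40.8 TPM, above every other screen sample (0.52, SE 0.151, adjusted p = 0.0112). Over all genes 17.7% were higher and 14.3% lower, against 3 and 1 of the 9 members. The call for PMAIP1 was lost with median-ratio scaling (adjusted p = 0.0671). Against the mean of the other compounds on its flow cell, which held no DMSO, BCL2L11 (0.72, adjusted p = 0.0593) and PMAIP1 (0.76, adjusted p = 0.109) were not called. BCL2L1 (-0.84, adjusted p = 0.0102) and BAK1 (0.69, adjusted p = 0.000538) were called, where 20% of genes were higher and 14.6% lower. That reference held Bromosporin, which moved BCL2L11 (1.61), PMAIP1 (1.53) and BCL2L1 (-2.14) the same way and BAK1 (-0.44) the other way. Bromosporin was only part of that mean, on a flow cell of 14 compounds, and its share in these differences was not tested.

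At 10 µM WT161 alone, BBC3 (2.19, SE 0.665, adjusted p = 0.0118), BCL2L11 (1.70, adjusted p = 0.000287), PMAIP1 (1.75, adjusted p = 0.00336) and BCL2L1 (-1.04, adjusted p = 0.0144) were called. In that sample 20.9% of genes were higher and 17.1% lower. At 1 µM alone BCL2L1 (-0.98, adjusted p = 0.0482) and BAK1 (0.64, adjusted p = 0.0219) were called, with 7.23% of genes higher and 5.3% lower. Against the mean of the other compounds on its flow cell, BCL2L1 at 10 µM was not called (-0.86, adjusted p = 0.0539) and BAK1 was (0.57, adjusted p = 0.0170), where 19.9% of genes were higher and 15% lower. A single sample's test borrows the spread between the doses of the other compounds.

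The other acetylation-axis compounds had no member called over both doses. MC 1568 gave PMAIP1 at 57.4 and 73.8 TPM and BBC3 at 6.73 and 8.22 TPM, all above the DMSO samples, without passing (PMAIP1 0.89, adjusted p = 0.119). The median of all genes with MC 1568 was itself shifted by 0.26. Against the DMSO of its own flow cell, with fewer samples and a smaller spread, MC 1568 had BBC3 (0.87, adjusted p = 0.00931), PMAIP1 (0.87, adjusted p = 0.0117), BCL2 (0.38, adjusted p = 0.0212) and BCL2L1 (0.32, adjusted p = 0.0257) called higher. In that fit 38.7% of all genes were higher and 10.2% lower, so 4 of 9 members is close to the background share. SGC-CBP30 at 10 µM gave BCL2L11 at 27.1 TPM, PMAIP1 at 68.4 TPM and BCL2L1 at 11.6 TPM, on the same side of DMSO as Bromosporin. At 1 µM these read 14, 38.5 and 19.2 TPM. BMF read 59.2 and 48.7 TPM with SGC-CBP30, the latter the lowest of the screen (-0.96, SE 0.339, adjusted p = 0.121). Merck60 and OJI-1 kept BCL2L11 between 10.2 and 13.3 TPM and PMAIP1 between 31.9 and 41.7 TPM.

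UNC0638, which targets the histone methyltransferase KMT1C (G9a), stood apart from the rest of the methylation axis in 1 sample. MCL1 read 224 TPM at 1 µM and 787 TPM at 10 µM, the highest of all 52 samples. Over both doses MCL1 was the 1 member called higher and none was lower (log2 fold change 0.97, SE 0.285, adjusted p = 0.0299), where 2.37% of genes were higher and 9.76% lower. The 2 doses did not behave alike. BBC3 read 3.03 TPM at 1 µM and 29.4 TPM at 10 µM, PMAIP1 39.0 and 106 TPM, and BMF 79.7 and 198 TPM. BAX read 253 and 143 TPM, and BAK1 29.3 and 20.6 TPM. At 1 µM alone none of the 9 members was called, and MCL1 differed by 0.06 (adjusted p = 0.946).

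At 10 µM UNC0638 alone, 4 members were called higher and 2 lower, where 14.9% of genes were higher and 26.4% lower. MCL1 rose by a log2 of 1.87, BBC3 by 2.68, PMAIP1 by 1.58 and BMF by 0.90. BAX (-0.78) and BAK1 (-0.57) were lower. The UNC0638 sample at 1 µM is left out of that fit. The MCL1 difference between the 2 doses, 1.81, therefore does not enter the spread used there. BCL2 read 15.1 TPM, BCL2L1 17.4 TPM and BCL2L11 16.9 TPM, and none of the 3 passed. This library held 6849916 reads, among the shallowest, with 7838 of them on MCL1 and 132 on BBC3. Against the mean of the other compounds on its flow cell, both doses of each, MCL1 (1.81), BBC3 (2.59), PMAIP1 (1.24), BMF (0.96), BAX (-0.58) and BAK1 (-0.45) were again called, where 14.1% of genes were higher and 26.5% lower. No second sample at this dose was measured.

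Cpd50, a pan-Jumonji inhibitor, lowered BAK1 to 20.2 and 19.2 TPM, below every DMSO sample (log2 fold change -0.63, SE 0.151, adjusted p = 0.0110). No member was called higher with Cpd50, where 3.43% of genes were higher and 2.27% lower. Against the DMSO of its own flow cell, BCL2L11 was called higher (0.61, adjusted p = 0.0327) and BAK1 again lower (-0.67, adjusted p = 0.0193), where 7.78% of genes were higher and 10.1% lower. The other Cpd50 values outside the DMSO range at both doses were BCL2L11 at 20.8 and 17.8 TPM, BBC3 at 7.42 and 7.92 TPM, BMF at 147 and 142 TPM, BCL2 at 10.6 and 10.1 TPM, MCL1 at 182 and 168 TPM, PMAIP1 at 31.4 and 31.3 TPM and BAX at 177 and 203 TPM. In each dose of Cpd50 alone BAK1 was not called. The medians over all 40 treated screen samples, 28.2 TPM for BAK1 and 218 TPM for BAX, also lay below every DMSO sample of the screen. The remaining 15 compounds had 0 of 135 member tests called over both doses, where 2.35% of all gene tests passed. At the higher dose alone, the 16 compounds without a called member had 2.29% of all gene tests pass, and at the lower dose alone the 17 such compounds had 0.916%.

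**Figure D2:**
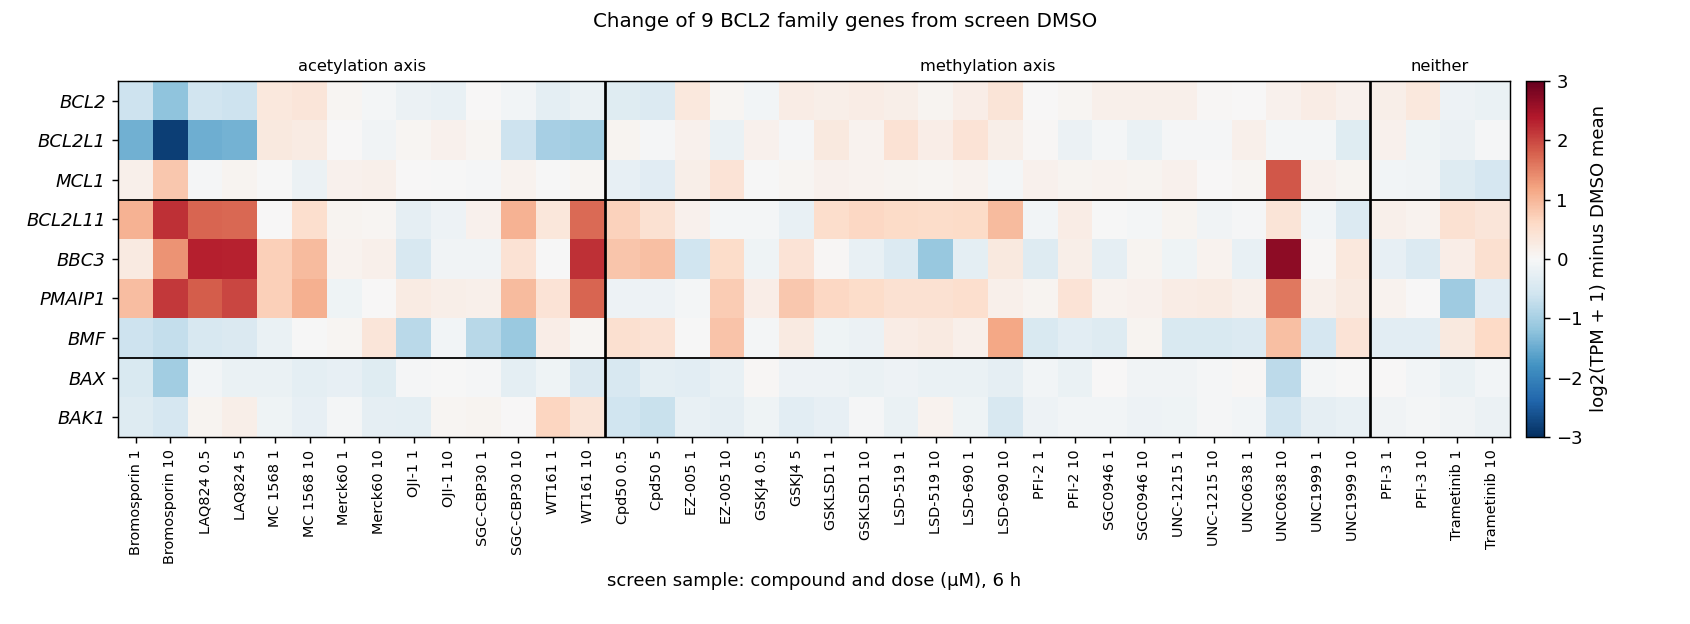
Change of 9 BCL2 family genes (rows) from the screen DMSO mean in 40 treated samples (columns, compound and dose in µM, grouped by axis), as differences in log2(TPM + 1), red higher and blue lower. BCL2L1 is blue for Bromosporin, LAQ824 and WT161, where BCL2L11 and PMAIP1 are red, and UNC0638 at 10 µM is the only methylation-axis column with MCL1 and BBC3 deep red.

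Within the methylation axis single samples stood out without a call. BMF read 236 TPM in LSD-690 at 10 µM, the highest of all samples, against 118 TPM at 1 µM. EZ-005 at 10 µM gave BMF at 193 TPM against 105 TPM at 1 µM. BCL2L11 was above the DMSO samples in all 6 samples of the LSD1 compounds, from 18.5 to 25.4 TPM. PMAIP1 read 38.5 to 53.6 TPM in these 6 samples, around the median of 41.5 TPM over all 40 treated screen samples. BBC3 in LSD-519 at 10 µM was the lowest of all samples, at 1.17 TPM, but rested on 5 reads. With trametinib, PMAIP1 read 15.9 TPM at 1 µM and 27.1 TPM at 10 µM, both below every DMSO sample, and MCL1 read 163 and 152 TPM. Neither passed over both doses (PMAIP1 -0.71, SE 0.406, adjusted p = 0.533; MCL1 -0.44, SE 0.285, adjusted p = 0.622). BCL2L11, a gene that MAPK signalling restrains, read 17.7 and 16.4 TPM with trametinib (0.41, SE 0.328, adjusted p = 0.748).

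Of 180 tests of a member with a compound, 17 were called over both doses, 9 higher and 8 lower. Over all genes and the 20 compounds, 4.54% of tests were higher and 4.16% lower, so the members together were called at close to the background share. All 7 calls among BH3-only genes were higher, in 3 compounds. BMF was not among them: it gave -0.67 with Bromosporin, -0.46 with LAQ824 and 0.13 with WT161. Of 6 calls among anti-apoptotic genes, 5 were lower and 1, MCL1 with UNC0638, was higher. The effectors had 3 lower calls and 1 higher. As a summary of this contrast, the mean log2 change of the 5 BH3-only genes less that of the 3 anti-apoptotic genes was taken in each sample, with no test. The 5 include HRK, which had no read in 42 of 52 samples and so makes most BH3-only means smaller in size. The contrast was 1.78 and 1.77 for LAQ824, 0.95 at 1 µM and 2.10 at 10 µM for Bromosporin, and 0.61 and 1.55 for WT161. In the 22 methylation-axis samples it ran from -0.32 to 0.60 with a median of -0.01, and in the 14 acetylation-axis samples from -0.24 to 2.10 with a median of 0.43. UNC0638 at 10 µM gave 0.46, with MCL1 and the BH3-only genes both higher. Cpd50 gave 0.53 and 0.60, the highest of the methylation axis.

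**Figure D3:**
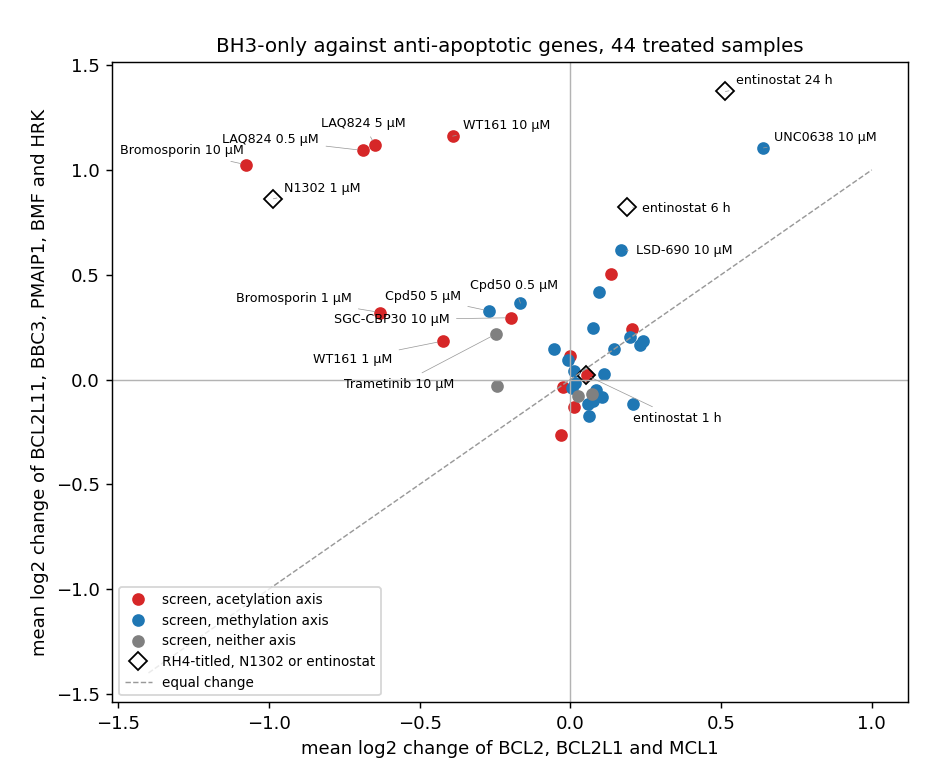
Mean log2 change of 5 BH3-only genes (vertical) against that of 3 anti-apoptotic genes (horizontal) in 44 treated samples, coloured by axis, with open diamonds for N1302 and entinostat and a dashed line where both changed equally. LAQ824, WT161 at 10 µM, Bromosporin at 10 µM and N1302 lie at the upper left, while UNC0638 at 10 µM and entinostat at 24 h lie at the upper right. The 5 BH3-only genes include HRK, which did not pass the filter.

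Across the 20 compounds, the mean changes of BCL2 and BCL2L1 had a Pearson r of 0.85, BCL2L11 and PMAIP1 0.69, and BCL2L1 and BCL2L11 -0.75. Without LAQ824, WT161 and Bromosporin these were 0.33, 0.02 and 0.40 over the other 17, so the pattern rests on those 3 compounds. The points share DMSO controls and, for 14 compounds, a flow cell. They are given as a description.

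No member was called between the acetylation and methylation axes as wholes. With compounds as the units (7 against 11), 0 of 16359 genes were called (0%), with 5018 at an unadjusted p below 0.05 and a smallest adjusted p of 0.0568. BCL2L1 was lower in the acetylation axis by a log2 of -0.69 (SE 0.256, adjusted p = 0.0885) and PMAIP1 higher by 0.53 (SE 0.214, adjusted p = 0.107). BCL2L11 differed by 0.52 (adjusted p = 0.157), BBC3 by 0.60 (adjusted p = 0.178), BMF by -0.41 (adjusted p = 0.12) and MCL1 by -0.05 (adjusted p = 0.8). With MC 1568, Merck60 or OJI-1 left out, 2 members passed each time, where 15.3%, 16.3% and 18.7% of all genes did. BCL2L1 was one of the 2 in each case.

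The 10-fold dose step called no gene in either axis (0%), with 3816 genes at an unadjusted p below 0.05 in the acetylation axis and 1616 in the methylation axis. In the acetylation axis BCL2L11 was higher at the higher dose in 5 of 7 compounds (0.57, SE 0.147, adjusted p = 0.0604) and PMAIP1 in 6 of 7 (0.56, SE 0.184, adjusted p = 0.0899). In the methylation axis BMF was higher in 9 of 11 (0.46, SE 0.122, adjusted p = 0.467). The BCL2L11 step differed between axes by 0.56 (SE 0.188, adjusted p = 0.219), and no gene was called in that difference (0%). With UNC0638 left out of this fit, 3 members were called for the acetylation step, where 6.93% of all genes were. With OJI-1 left out 2 members were called, where 5.82% of genes were.

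WT161, MC 1568, Merck60 and OJI-1 shared doses and time, which allows 6 comparisons of compounds with different labelled HDAC targets. WT161 differed from each of the other 3 in BCL2L1 and BAK1. BCL2L1 was lower with WT161 than with MC 1568 (MC 1568 minus WT161 1.28, 95% interval 0.74 to 1.82, adjusted p = 0.000425), Merck60 (the same difference 0.96, 0.42 to 1.5, adjusted p = 0.00709) and OJI-1 (1.11, 0.57 to 1.65, adjusted p = 0.00200). BAK1 was higher with WT161, and the differences of MC 1568, Merck60 and OJI-1 from WT161 were -0.70, -0.68 and -0.64. BCL2L11 was lower in Merck60 than in WT161 (-0.95, adjusted p = 0.0286) and lower in OJI-1 (-1.24, adjusted p = 0.00492), and PMAIP1 lower in Merck60 (-1.14, adjusted p = 0.0350). BCL2 was higher with MC 1568 than with OJI-1 (0.53, adjusted p = 0.00631) and WT161 (0.58, adjusted p = 0.00251). Of these 11 calls, 10 also passed when each gene's p was adjusted over the 9 pairs compared, the exception being PMAIP1 between Merck60 and WT161 (0.0894).

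Many genes differ between these compounds. The shares of all genes called were 41.3% between MC 1568 and WT161 (3 members), 36.8% between MC 1568 and OJI-1 (1 member), 35.1% between OJI-1 and WT161 (3 members) and 31.5% between Merck60 and WT161 (4 members). No member was called between MC 1568 and Merck60 (18.6% of genes) or Merck60 and OJI-1 (1.1%). MC 1568 was sequenced on another flow cell than the other 3, and GSKLSD1 on another than LSD-519 and LSD-690, so compound and flow cell cannot be told apart in those pairs. Among the LSD1 compounds no member was called between GSKLSD1 and LSD-519 (1.34% of genes), GSKLSD1 and LSD-690 (2.46%) or LSD-519 and LSD-690 (0%, with no gene called). BMF between GSKLSD1 and LSD-690 differed by -0.82 with a 95% interval of -1.52 to -0.12 (adjusted p = 0.274). BCL2L11 between GSKLSD1 and LSD-519 differed by 0.01, with an interval of -0.67 to 0.68 that leaves room for changes of either sign.

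The RH4-titled samples have 1 sample a group, and no replicate stands behind any difference between them. With N1302 at 1 µM for 6 h, 3 BH3-only genes read higher and 2 anti-apoptotic genes lower. BBC3 read 13.8 TPM against 1.62 in DMSO, from 179 and 30 reads. BCL2L11 read 41.2 against 17.4 TPM and PMAIP1 69.7 against 28.7 TPM. BCL2 read 5.87 against 17.4 TPM and BCL2L1 5.02 against 11.4 TPM. These 5 were past 2-fold on the log2(TPM + 1) scale, 3 higher and 2 lower, where 11.6% of all genes were higher and 19.3% lower. MCL1 read 185 against 262 TPM, BMF 31.2 against 48.9 TPM, BAX 153 against 157 TPM and BAK1 49.8 against 42.6 TPM. Median-ratio scaling raised the N1302 differences of all 9 members, so BCL2L1 became -0.76, MCL1 -0.17 and BAX 0.30 in place of -0.03.

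With entinostat BBC3, PMAIP1 and BMF read higher at the later times, and BCL2L1 did not read lower. At 1 h no member was past 2-fold, where 0.66% of genes were higher and 0.581% lower. At 6 h BBC3 read 6.80 TPM against 2.17 in DMSO, PMAIP1 67.1 against 29.8 and BMF 51.0 against 21.8. These 3 were past 2-fold and higher, with 5.13% of genes higher and 0.947% lower. At 24 h PMAIP1 read 219 against 33.1 TPM, the highest of all 52 samples. BBC3 read 11.9 against 2.73 TPM and BMF 58.2 against 21.8 TPM, and these 3 were past 2-fold where 16.4% of genes were higher and 6.06% lower. BCL2L11 read 11, 15.3 and 18 TPM at 1, 6 and 24 h against 11.4, 10.7 and 11.5 in DMSO.

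BCL2L1 read 14.9, 21.9 and 27.8 TPM with entinostat at 1, 6 and 24 h, against 14.8, 12.9 and 13.9 TPM in DMSO, so it was higher where LAQ824, WT161 and N1302 had it lower. At 24 h its difference was 0.95, just under 2-fold on this scale, and 1.04 with median-ratio scaling. BCL2 read 19.2 against 15 TPM at 24 h and MCL1 244 against 204 TPM. BAX, at 192 against 277 TPM, and BAK1, at 26.4 against 35.0 TPM, were lower. BMF was higher with entinostat at 6 h and lower with N1302 at 6 h, and it read 21.8 TPM in the DMSO sample of the time course and 48.9 TPM in that of N1302. With both 6 h DMSO samples as control the N1302 difference of BMF was -0.07. The contrast of BH3-only with anti-apoptotic genes was 1.85 for N1302 and -0.03, 0.63 and 0.86 for entinostat at 1, 6 and 24 h. Doses, times and cell titles differ between the screen and these samples, so the values stand side by side and were not tested.

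**Figure D4:**
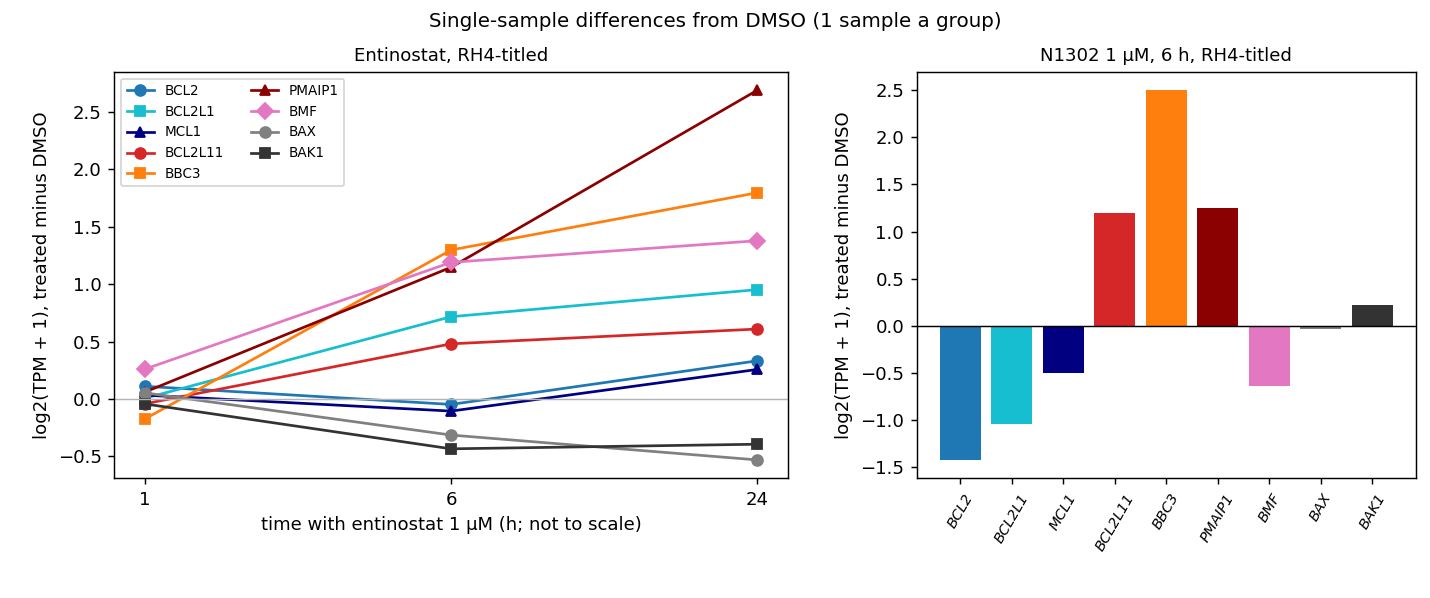
Differences in log2(TPM + 1) from the DMSO sample of the same time for 9 BCL2 family genes, with entinostat at 1, 6 and 24 h on the left and N1302 at 6 h on the right, 1 sample a group and no error bars. PMAIP1 reads 2.69 with entinostat at 24 h, where BCL2L1 is at 0.95, and BCL2L1 is at -1.04 with N1302.

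Other genes of the pathway were called with the same compounds. Of 9 further BCL2 family genes, 7 were measured well enough to test. BID, the BH3-only link from death receptors to mitochondria, was lower with LAQ824 (9.43 and 12 TPM against 35 to 37.9 in DMSO; -1.69, adjusted p = 9.11e-09), WT161 (-1.31, adjusted p = 1.56e-06) and trametinib (-0.57, adjusted p = 0.0382). BIK, a BH3-only gene, was at 0 to 0.258 TPM in DMSO and 6.55 and 6.51 TPM with LAQ824 (2.69, adjusted p = 3.19e-05), and was higher with Bromosporin (1.54, adjusted p = 0.0114). BCL2L13 was lower with LAQ824 (-0.90) and WT161 (-0.40), and the effector-like BOK (-1.01) and the anti-apoptotic BCL2L2 (-0.86) were lower with Bromosporin. BID, BCL2L13 and the BH3-only gene BAD were also called lower with Bromosporin. Of the 7 tested, LAQ824 had 2 higher and 2 lower, Bromosporin 1 and 5, and WT161 0 and 2. Over all genes, 28.4% were higher and 24.6% lower with LAQ824, 12.4% and 23.4% with Bromosporin, and 17.7% and 14.3% with WT161. The LAQ824 counts are close to these shares. The list medians were -0.66, -0.75 and -0.28, against 0.06, -0.12 and 0.03 over all genes.

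Of 11 genes of the mitochondrial caspase pathway, LAQ824 and WT161 each had 5 called higher and 2 lower, and Bromosporin 3 higher and 0 lower. The shares of all genes were 28.4% higher and 24.6% lower with LAQ824, 17.7% and 14.3% with WT161, and 12.4% and 23.4% with Bromosporin. CASP9, the initiator caspase of the apoptosome, was higher with LAQ824 (35.7 and 36.1 TPM against 13 to 14.8 in DMSO; 1.28, adjusted p = 4.47e-06) and WT161 (0.94, adjusted p = 0.000528). APAF1, the apoptosome scaffold, was higher with WT161 (0.94, adjusted p = 0.000774). XIAP, a caspase inhibitor, was lower with LAQ824 (-1.59, adjusted p = 9.54e-06). CYCS, which encodes cytochrome c (0.64), and DIABLO (0.36) were higher with Bromosporin, while CYCS (-0.48) and DIABLO (-0.28) were lower with MC 1568. The list medians were 0.34, 0.12 and 0.03 with LAQ824, WT161 and Bromosporin, against 0.06, 0.03 and -0.12 over all genes.

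Of 8 regulators of the members, FBXW7, the ubiquitin ligase subunit that targets MCL1 protein, was higher with LAQ824 (0.97), WT161 (1.06) and Bromosporin (1.12). HUWE1, another ligase of MCL1, was lower with LAQ824 (-1.16) and WT161 (-0.52). USP9X, which removes ubiquitin from MCL1, was higher with Bromosporin (0.35). FOXO3, an activator of BCL2L11, was lower with LAQ824 (-1.05, adjusted p = 7.08e-05), and E2F1 was lower with WT161 (-0.47). LAQ824 had 1 regulator higher and 5 lower, WT161 1 and 2, and Bromosporin 2 and 0. Of all genes, 28.4% were higher and 24.6% lower with LAQ824, 17.7% and 14.3% with WT161, and 12.4% and 23.4% with Bromosporin. The list medians were -0.48, -0.43 and 0.09 with these compounds, against 0.06, 0.03 and -0.12 over all genes. MC 1568 and trametinib had no regulator called.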

How the data were processed

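Poly-A RNA from 52 FP-RMS samples was sequenced. The authors aligned reads with STAR to hg19 (GRCh37) and deposited 1 table of TPM values per gene and sample. Their methods name RSEM for TPM, and whether it gave these tables was not tested. TPM divides by the sample's total, so a fall of abundant genes raises the others. Whole reads were worked out from the TPM steps: 100% of 23645 genes above 0 came out whole within 0.01 reads. They gave the depths and 1 alternative test, and intervals here cover the spread between samples only. Genes with at least 1 TPM in 2 or more samples (16359) were tested on log2(TPM + 1) with limma 3.58.1 in R 4.3.3 (eBayes with trend), with Benjamini-Hochberg adjustment and calls below 0.05. All compounds shared 1 fit of 40 treated samples and the means of the 2 DMSO concentrations. DMSO samples of 1 concentration were averaged because, after concentration and flow cell, they differed by counting noise (variance ratio 1.02 over 10378 genes). The 2 samples of a concentration lay on different flow cells. The ratio for flow cell was 4.06 and that for concentration 3.53, so both differences exceeded counting noise. The script was tested on simulated data. Likeness of members, list medians and single-sample differences are descriptions. Flow cells are identifiers in the table names. The flow cell with 14 compounds held no DMSO.

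The members, gene lists and comparisons were chosen with earlier results of these data known. Named genes were the 10 members and, for 5 compounds, the 3 called genes with the largest change in each pathway list. Some genes this rule named are not reported here. Tests of the higher dose alone under further settings, the comparison of sequences and the choice of single samples described were made after the values were seen. Alternatives covered the pseudocount, filter, scaling, reference, dose and test.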

Additional observations from a re-analysis of the deposited data

How the results depend on the processing

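Of the 17 member calls over both doses, all kept their direction under every alternative. All 17 remained called with a pseudocount of 0.1, a mean TPM of at least 5, all 4 DMSO samples entered separately, dose level as covariate, voom on whole reads, and without each DMSO sample in turn. Another 15 remained with no filter, median-ratio scaling and a reference within the flow cell, and 6 with only the compound and DMSO in the fit, where few degrees of freedom are left. Over the compounds of the acetylation axis there were 8 higher and 7 lower calls of a member with a compound. The doses alone gave 4 to 8 higher and 5 to 7 lower, only the compound and DMSO in the fit gave 4 lower, and a log2 change of at least 1 gave 3 lower. In the methylation axis there was 1 higher and 1 lower call; higher calls ranged from 0 to 4 and lower calls from 0 to 2 between the doses alone. With no filter or the fold threshold higher calls were 0, within the flow cell 2, and with only the compound and DMSO 7 higher and 4 lower. Lower calls were 2 with all 4 DMSO samples or voom and 0 with the fold threshold. Axis calls went from 0 to 2 when a compound was left out. Dose-step calls in the acetylation axis went from 0 to 1 with a mean TPM of at least 5, to 2 relative to DMSO titled alike, and ranged from 0 to 3 with a compound left out; the methylation step gave 1 relative to DMSO titled alike, where the DMSO difference is subtracted as if it had no error. The 4 screen DMSO samples share replicate numbers 1 and 2, and 0 members differed between 0.2% and 0.1% with or without the replicate block (1548 and 1768 genes at an unadjusted p below 0.05). In the samples named next, the contrast of BH3-only and anti-apoptotic genes kept its sign. As a median it read 2.56 for Bromosporin at 10 µM, 2.34 and 2.33 for LAQ824 and 1.90 for WT161 at 10 µM. It read 2.23 for N1302 and 1.19 for entinostat at 6 h. A pseudocount of 0.1 gave 2.55 for Bromosporin at 10 µM and 1.25 for entinostat at 24 h. The latter includes HRK, with 7 reads against 0. Its difference was 2.07 with this pseudocount and 0.40 with a pseudocount of 1. Very small contrasts, such as 0.0023 for GSKLSD1 at 10 µM, have no firm sign. Depth limits BBC3 and HRK most.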

Other observations

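The untreated levels of some members differed between the sets of samples, which the labels do not allow to be compared as groups. BMF read 103 to 108 TPM in the 4 screen DMSO samples, 48.9 TPM in the DMSO sample beside N1302, and 29.5, 21.8 and 21.8 TPM in the DMSO samples of the entinostat series at 1, 6 and 24 h. BBC3 read 3.47 to 4.21 TPM in the screen, 1.62 TPM beside N1302 and 2.17 to 3.10 TPM in the entinostat series. BAK1 was 29.5 to 32.9 TPM in the screen and 35.0 to 44.5 TPM in the 4 other DMSO samples. These are values only, and the part of cell title and flow cell in them was not tested.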
